A study of Mus musculus with 56 samples.

Results

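T cells whose T cell receptor was seen once were studied in mouse liver tumours, as the part of the repertoire that showed no clonal expansion at the depth sampled. A T cell here is a cell barcode with a productive, high-confidence beta chain (TRB) contig, and its clonotype is the V segment, J segment and nucleotide CDR3 of the TRB contig with the most unique molecular identifiers (UMIs). A clonotype that held exactly 1 T cell of its library made that cell a singleton. By this rule 4529 of 7605 T cells (59.6%) in 15 libraries were singletons, and they carried 4496 distinct beta chains. The choice of these cells rests on clonotype size alone, so the share of singletons below is a description and was not tested.

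The tumours came from 14 mice and are labelled hepatocellular carcinoma, and all carry Myc in the genotype label. In each genotype Myc is combined with Luc or LucOS and with NICD or sgp53. NICD stands for the active intracellular domain of a NOTCH receptor, sgp53 stands for a CRISPR guide that targets p53, a tumour suppressor, luc is luciferase and lucOS is luciferase joined to model T cell antigens. The groups were 3 female luc NICD animals, 3 female lucOS NICD animals, 3 female luc sgp53 animals, 3 female lucOS sgp53 animals and 2 male lucOS NICD animals. Of the lucOS sgp53 animals, 1 gave 2 libraries (replicates 3 and 4), which were joined for every value per animal. The genotype label of luc NICD replicate 2 is spelled MycLucNICD, without the comma of the others. The males come from a separately numbered series of animals, so that sex and series cannot be told apart. Strain, age and injection are not given in the labels of these libraries. Nodules were picked by eye from perfused livers, and CD45 positive and negative cells were mixed again in equal numbers, so the share of immune cells in a library was set by hand.

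The beta chain of a T cell receptor is built in the thymus by joining 1 V, 1 D and 1 J segment of the Trb locus. Bases are trimmed and added at random where the segments meet, and this junction forms the middle of the CDR3, the loop that touches the peptide antigen. A cell that meets its antigen divides and leaves copies of its receptor, so singletons are the cells for which no copy was found in their own library. In the liver some T cells carry a near-constant alpha chain: invariant NKT cells, which see lipids on CD1d, join TRAV11 to TRAJ18, and MAIT cells, which see vitamin B metabolites on MR1, join TRAV1 to TRAJ33.

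The commonest V and J combination shows how singletons differed from each other. It joined the V entry written TRBV12-2+TRBV13-2 to TRBJ2-7 and held 103 singletons. The sequences below are nucleotide CDR3s of 3 of them, chosen for the shortest, the median and the longest central stretch, which is given in capitals. The central stretch is the part between the bases that match the start shared by that V segment's singletons and the end shared by that J segment's singletons.
Shortest, from female lucOS sgp53 replicate 1: tgtgccagcggtgGctatgaacagtacttc
Median, from female lucOS sgp53 replicate 3: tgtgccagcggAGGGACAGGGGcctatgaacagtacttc
Longest, from female lucOS NICD replicate 3: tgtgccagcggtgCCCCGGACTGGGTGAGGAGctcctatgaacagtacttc
The central stretch of these receptors had 1, 11 and 19 bases, and their CDR3s had 10, 13 and 17 residues.

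The joint V entry is taken as named in the deposited contigs, and its CDR3 starts were compared with those of TRBV12-2 and TRBV13-2. The starts shared by singletons of each name are printed here, with capitals at the 5 positions where TRBV12-2 and TRBV13-2 differ.
TRBV12-2: tgtgccagcTCtCTCg
TRBV12-2+TRBV13-2: tgtgccagcGGtGATgc
TRBV13-2: tgtgccagcGGtGATgc
Of the 510 singletons under the joint name, 502 (98.4%) had the TRBV13-2 bases at positions 10 and 11 of the CDR3, counted from 1 at its 5′ end, and 0 had those of TRBV12-2. Among the 304 singletons named TRBV12-2, 301 had the TRBV12-2 bases there and 0 had those of TRBV13-2. At the 5′ end of their CDR3s, singletons under the joint name thus matched the 80 named TRBV13-2. In the RefSeq table of GRCm38.p6, the build called mm10, Trbv12-2 lies at chr6:41118864-41119364 and Trbv13-2 at chr6:41121396-41121832, both annotated as V segments.

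Per library, singletons were 31.8% to 100% of T cells, with a median of 63.7%. In female luc NICD tumours they were 88.1%, 100% and 81.6% of 286, 77 and 49 T cells, and in female lucOS NICD tumours 57.6%, 77.5% and 57.1% of 432, 151 and 268. In female luc sgp53 tumours the shares were 68.7%, 85.5% and 88.1% of 402, 599 and 691 T cells, in female lucOS sgp53 tumours 63.7%, 31.8%, 46.2% and 46.4% of 1282, 828, 706 and 644, and in male lucOS NICD tumours 42.0% and 48.3% of 557 and 633. Every luc library but luc sgp53 replicate 1 lay above every lucOS library. Because a small sample holds fewer copies, the expected share was also computed for 49 T cells, the size of the smallest library. It then averaged 93.1% ± 9.99 (SD, n = 3 animals) in luc NICD, 92.1% ± 7.0 in luc sgp53, 76.3% ± 12.1 in lucOS NICD and 67.1% ± 14.6 in lucOS sgp53 females, and was 58.1% and 79.2% in the males. At that size lucOS NICD replicate 2, at 88.5%, lay above luc NICD replicate 3 (81.6%) and luc sgp53 replicate 1 (84.1%). The share of lucOS sgp53 replicate 1, at 83.1%, lay above that of luc NICD replicate 3 as well. Counted as clonotypes, singletons were 81.2% to 100% of the clonotypes of a library. Just outside the rule lay 217 clonotypes of 2 cells, with a mean CDR3 of 13.7 residues against 13.9 in singletons.

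**Figure D1:**
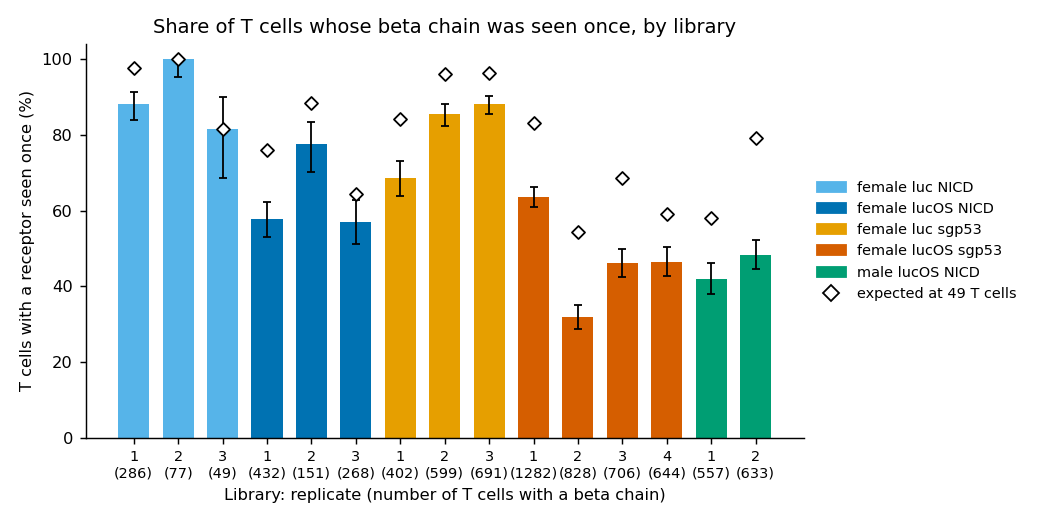
Bars give the share of T cells (%, y axis) whose beta chain was seen once in each of the 15 libraries (x axis, replicate and number of T cells), with 95% Wilson intervals for counting error, coloured by group; diamonds give the share expected at 49 T cells. The shares run from 31.8% to 100%, and thinning to 49 cells raises all but the 2 libraries at 100% and at 49 T cells.

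T cells were defined by their beta chain, and 3542 singletons (78.2%) had a productive alpha chain (TRA) as well. No library held a productive gamma or delta chain or an immunoglobulin contig. The median UMI count of the TRB contig in singletons was 6 to 12 per library, against 5.5 to 18.5 in cells of larger clonotypes. Of 7566 T cell barcodes, 39 occurred in more than 1 library, and for 1 of them the clonotype was the same as well. In all, 251 singletons had 2 or more TRB contigs. Some singletons lay near a larger clonotype of their library: 11 differed from one by 1 base, 19 had the J segment and CDR3 of a clonotype under another V name, and 21 carried the TRB of a larger clonotype as a second contig. Of those 19, 15 were named TRBV13-2 and 4 carried the joint name.

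Few singletons were found again in another mouse. There were 41 of them (0.905%), from 25 clonotypes, of which 21 spread over 2 animals, 1 over 3 and 3 over 4. Another 55 singletons recurred only in the other library of the same lucOS sgp53 animal. The shared singletons had shorter junctions, with a mean central stretch of 7.44 bases against 9.96 in the rest and a mean CDR3 of 13.1 against 13.9 residues. The 3 clonotypes found in 4 animals are given here as they occur in a singleton, with the central stretch in capitals.
TRBV12-2+TRBV13-2 with TRBJ1-5: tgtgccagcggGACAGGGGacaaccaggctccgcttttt
TRBV12-2+TRBV13-2 with TRBJ2-7: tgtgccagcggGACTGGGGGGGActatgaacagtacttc
TRBV13-1 with TRBJ2-3: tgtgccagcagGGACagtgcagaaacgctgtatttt
A singleton of 1 animal could be a large clonotype of another. The first of these was a singleton in 4 libraries and held 43 cells in female lucOS sgp53 replicate 2. The second was a singleton in female lucOS NICD replicate 3 and held 5 cells in replicate 2 of that group, 18 and 30 in both libraries of 1 lucOS sgp53 animal and 20 in male replicate 1. The last held at most 3 cells in any library.

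Singletons used 22 V entries, led by the joint name TRBV12-2+TRBV13-2 with a mean share of 10.6% ± 3.20 (SD, n = 14 animals) and a range of 2.50% to 15%. It was followed by TRBV19 with 7.86% ± 2.74, TRBV3 with 7.42% ± 2.53, TRBV13-3 with 7.36% ± 2.07 and TRBV1 with 6.56% ± 3.08. The order of these 4 was not tested. The lowest were TRBV23 and TRBV30, with 19 and 16 singletons in all. TRBV10 and TRBV29 gave 167 and 210 singletons with productive contigs, although the RefSeq table lists both segments as pseudogenes, at chr6:41091935-41092228 and chr6:41271403-41271881. The effective number of V entries, the inverse of the chance that 2 singletons of an animal share one, ran over group means from 15.4 in female lucOS NICD to 18.7 in female luc NICD.

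**Figure D2:**
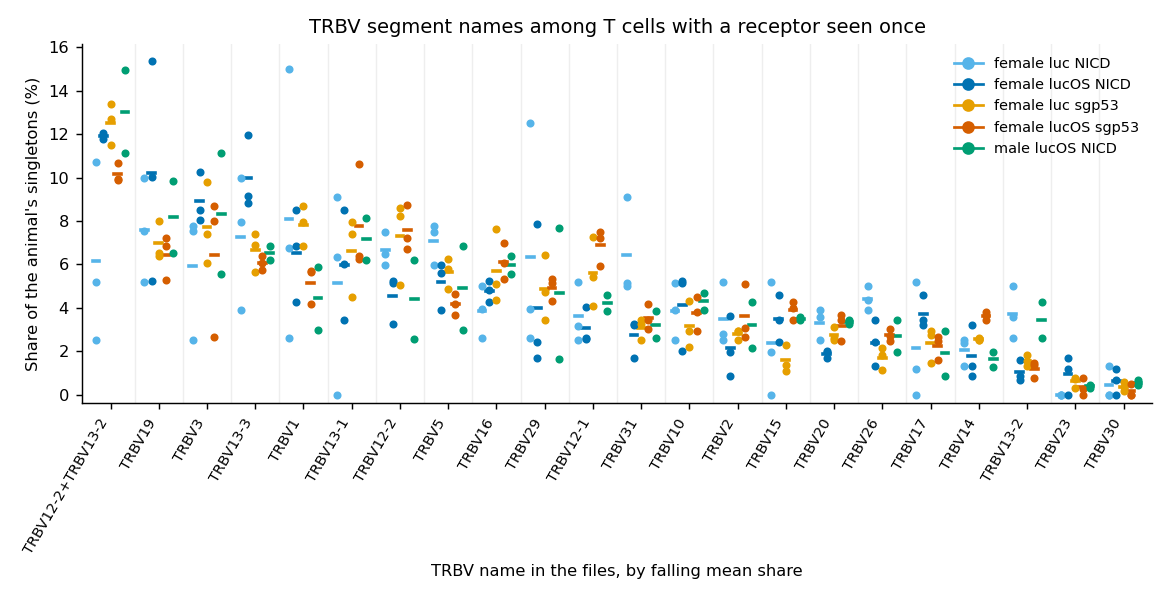
Each point is 1 animal's share of singletons (%, y axis) with the V name on the x axis, coloured by group, and short lines are group means. The joint name TRBV12-2+TRBV13-2 leads, with 2.50% to 15%, and the groups overlap in most entries.

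V usage was compared between groups on singleton counts per animal with edgeR's quasi-likelihood test, adjusted over the 22 entries of a contrast. Antigen means lucOS against luc in females, averaged over both drivers, and driver means NICD against sgp53 in females, averaged over both constructs. No entry passed an adjusted p of 0.05 in the antigen, driver or male contrast or in the interaction of antigen and driver, so 0% were called in each. At an unadjusted p under 0.05 there were 2, 2, 1 and 3 entries by edgeR. Exact permutation of the shares called 0 as well, with 2, 4 and 0 entries under 0.05 unadjusted in the first 3 contrasts. Its smallest possible p is 0.005 for antigen and driver, so 1 entry alone could not pass after adjustment over 22. In the male contrast the smallest possible p is 0.1, so no entry could be under 0.05. For V segments the simulated antigen contrast recovered 45% of changes of 2-fold and 88.8% of 4-fold. The simulated shares varied more between animals than the common dispersion fitted to V segments (0.00523), so these rates do not carry over directly.

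By edgeR the driver contrast came nearest with TRBV12-1. It made up 3.17%, 5.19% and 2.50% of singletons in luc NICD and 4.02%, 2.56% and 2.61% in lucOS NICD females, against 7.25%, 4.10% and 5.42% in luc sgp53 and 7.48%, 7.22% and 5.92% in lucOS sgp53 females. Only luc NICD replicate 2, with 77 singletons, lay inside the sgp53 range. The log2 ratio of NICD over sgp53 was -0.82 ± 0.24 (SE, n = 12 animals), with an edgeR adjusted p of 0.0559. Without luc NICD replicate 2 the adjusted p was 0.0431, without luc sgp53 replicate 2 it was 0.0189 and without lucOS sgp53 replicate 3 it was 0.0272. With each of the 15 libraries left out in turn, the edgeR adjusted p ran from 0.0189 to 0.518. TRBV12-1 was called only in those 3 cases. Exact permutation gave p = 0.01 and an adjusted p of 0.11. By that test TRBV14 came first, with the smallest possible p of 0.005 and the same adjusted p of 0.11. TRBV14 averaged 1.93% ± 0.907 in NICD and 3.10% ± 0.599 in sgp53 females (edgeR adjusted p = 0.489). By edgeR TRBV16 was second, with means of 4.31% ± 0.962 in NICD and 5.91% ± 1.23 in sgp53 females (edgeR adjusted p = 0.290), and then came TRBV13-3, with 8.63% ± 2.69 and 6.36% ± 0.672 (adjusted p = 0.290).

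In the antigen contrast TRBV15 was 3.69% ± 0.778 of singletons in lucOS and 1.99% ± 1.76 in luc females (SD, n = 6 animals each), a log2 ratio of 0.82 ± 0.30 with an edgeR adjusted p of 0.274. TRBV13-2 under its own name was 1.11% ± 0.402 in lucOS and 2.64% ± 1.42 in luc females (edgeR adjusted p = 0.274). TRBV5 was 4.67% ± 0.939 and 6.36% ± 1.10 (edgeR adjusted p = 0.763). Between male and female lucOS NICD animals TRBV13-2 was 4.27% and 2.61% in the males against 1.61%, 0.855% and 0.654% in the females (edgeR adjusted p = 0.350). TRBV13-3 was 6.84% and 6.21% in the males against 8.84%, 12% and 9.15% (edgeR adjusted p = 0.767), and TRBV17 was 0.855% and 2.94% against 3.21%, 3.42% and 4.58% (edgeR adjusted p = 0.859). The exact permutation test for 2 males against 3 females cannot go below p = 0.1. That value was reached by TRBV13-2, TRBV13-3, TRBV16, TRBV17 and TRBV20, whose shares did not overlap between these males and females.

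All 12 J segments called in these singletons lie in 2 clusters, TRBJ1 and TRBJ2, each with its own D segment before it and its own constant gene behind it. TRBJ2-7 was the commonest, with a mean share of 18.9% ± 3.17 (SD, n = 14 animals), followed by TRBJ2-1 with 13.2% ± 2.25, TRBJ2-5 with 12.5% ± 2.65, TRBJ1-1 with 9.97% ± 2.36 and TRBJ2-3 with 9.61% ± 2.48. TRBJ2-7 did not lead in every group: in luc NICD its mean was 15% ± 4.42 (SD, n = 3 animals) and that of TRBJ2-5 was 15.2% ± 4.19. The order of the segments below TRBJ2-7 was not tested. The rarest were TRBJ1-6 and TRBJ1-5, with 143 singletons each. TRBJ2 segments together made up 67.1% of singletons.

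TRBJ1-3 was the J segment that differed between groups. It lies at chr6:41534323-41534372 in GRCm38.p6. It made up 0.803%, 0.855% and 1.96% of singletons in the female lucOS NICD animals, which is 6 of 519 cells. In the other animals it made up 4.37%, 3.90% and 2.50% in luc NICD, 5.80%, 5.27% and 4.93% in luc sgp53, 4.53%, 6.08% and 3.36% in lucOS sgp53 females and 4.70% and 5.23% in the lucOS NICD males. Each of the 3 female lucOS NICD animals thus lay below each of the other 11. The nucleotide CDR3s of 5 of the 6 singletons are printed here, central stretch in capitals, since the low value rests on this few cells.
TRBV19, replicate 1: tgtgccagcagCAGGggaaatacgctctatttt
TRBV19, replicate 1: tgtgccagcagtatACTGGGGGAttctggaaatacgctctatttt
TRBV20, replicate 2: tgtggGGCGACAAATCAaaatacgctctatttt
TRBV1, replicate 3: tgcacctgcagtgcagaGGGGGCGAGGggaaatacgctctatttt
TRBV2, replicate 3: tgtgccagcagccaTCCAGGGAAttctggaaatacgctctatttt
These 5 cells used 4 V segments, and each had its own central stretch.

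TRBJ1-3 was called in all 3 contrasts by edgeR with p adjusted over the 12 J segments, and it was the only call in each, so 8.33% were called. The log2 ratio was -1.02 ± 0.35 (SE) for lucOS over luc (adjusted p = 0.0471), -1.12 ± 0.33 for NICD over sgp53 (adjusted p = 0.0105) and 2.08 ± 0.57 for male over female lucOS NICD (adjusted p = 0.00494). The contrasts share the female lucOS NICD animals and are not independent. The interaction was not tested for J segments. The antigen call was lost when any of 12 of the 15 libraries was left out, with adjusted p-values of 0.0225 to 0.489 over all 15. The driver call was lost without female lucOS NICD replicate 1 (adjusted p = 0.0645), and the male call without that library (adjusted p = 0.107) or without male replicate 2 (adjusted p = 0.114). By exact permutation the driver contrast gave the smallest p possible, 0.005, and an adjusted p of 0.06, the antigen contrast p = 0.035 and an adjusted p of 0.27, and the male contrast p = 0.1, also the smallest possible. Among clonotypes of 2 or more cells, counted per library, TRBJ1-3 was found in 1 of 61 in female lucOS NICD, 1 of 18 in luc NICD, 4 of 79 in luc sgp53, 7 of 213 in lucOS sgp53 females and 4 of 105 in the males.

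No other J segment was called. TRBJ2-3 averaged 10.7% ± 3.50 of singletons in NICD and 8.68% ± 1.03 in sgp53 females (edgeR log2 ratio 0.45 ± 0.13, adjusted p = 0.0539), and luc NICD replicate 3, with 40 singletons, had the lowest share at 5.00%. Without that library the adjusted p was 0.0250. It was also called without lucOS NICD replicate 3 (adjusted p = 0.0170), luc sgp53 replicate 1 (0.0490) or lucOS sgp53 replicate 4 (0.0458). With each of the 15 libraries left out in turn, the edgeR adjusted p ran from 0.0170 to 0.683. Exact permutation gave p = 0.23 and an adjusted p of 0.585. TRBJ1-5 averaged 2.45% ± 2.10 in NICD and 3.36% ± 1.03 in sgp53 females (edgeR adjusted p = 0.628), and 3.25% ± 1.84 in lucOS and 2.55% ± 1.51 in luc females (edgeR adjusted p = 0.366). TRBJ2-4 averaged 7.55% ± 1.31 in lucOS and 9.19% ± 1.74 in luc females (edgeR adjusted p = 0.475). TRBJ2-1 made up 10.7% and 8.82% of singletons in the males and 16.1%, 11.1% and 14.4% in female lucOS NICD animals (edgeR adjusted p = 0.139). TRBJ2-5 made up 12.8% and 15.4% in the males against 12.9%, 9.40% and 10.5% (edgeR adjusted p = 0.727).

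**Figure D3:**
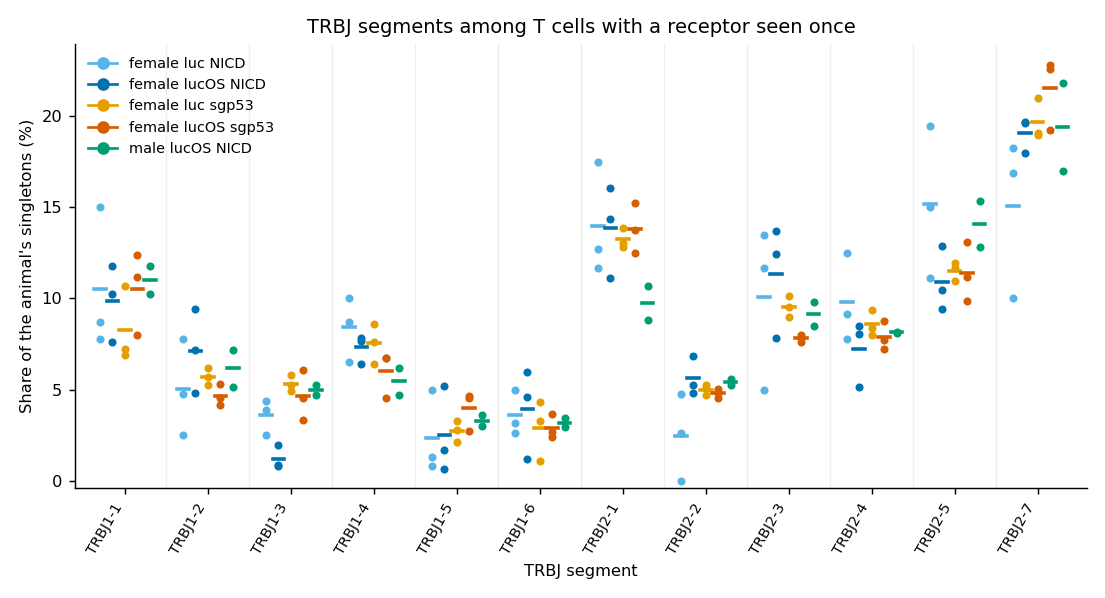
Each point is 1 animal's share of singletons (%, y axis) with the J segment on the x axis, coloured by group, and short lines are group means. The 3 female lucOS NICD animals sit at 0.803% to 1.96% for TRBJ1-3, below the other 11 animals, which start at 2.50%.

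TRBD2 at chr6:41542163-41542176 lies behind the TRBJ1 cluster, and of 425 singletons with TRBD2 named, 7 (1.65%) used a TRBJ1 segment. TRBD1 at chr6:41533201-41533212 lies before both clusters, and of 697 singletons with TRBD1 named, 302 used TRBJ1 and 395 used TRBJ2. For 3407 singletons no D segment was named. The constant gene TRBC1 was named in 1474 singletons, all with TRBJ1, and TRBC2 in 3024, all with TRBJ2. The central stretch was longer with TRBJ2 in 14 of 14 animals, with a mean of 10.5 ± 0.361 bases against 8.62 ± 0.457 with TRBJ1 (SD, n = 14 animals). Segment by segment, the 6 TRBJ2 means ran from 9.98 to 11.0 bases and the 6 TRBJ1 means from 8.20 to 9.34. This difference was noticed in the data and is given without a test.

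V and J segments were combined widely. Singletons filled 256 of the 264 possible pairs. For each pair an expected number was taken from the product of the V and J shares within each animal, and 165 pairs had an expected number of at least 10. Over these, observed over expected ran from 0.435 to 1.73, with quartiles of 0.823 and 1.14, and 3 pairs were above 1.5 and 14 below its inverse. The highest were TRBV19 with TRBJ1-6 (18 seen, 10.4 expected), TRBV16 with TRBJ2-5 (49 seen, 31.2 expected, above expectation in 12 of 14 animals) and TRBV1 with TRBJ1-1 (44 seen, 28.2 expected). The lowest were TRBV16 with TRBJ1-2 (6 seen, 13.8 expected) and TRBV3 with TRBJ1-6 (5 seen, 10.9 expected), and the pair with the most cells expected among the low ones was TRBV19 with TRBJ2-7 (39 seen, 64.2 expected, above expectation in 1 of 14 animals). The share of TRBJ2 ran from 55.7% with TRBV29 to 77.9% with TRBV16. These ratios were not tested, and the pairs named were picked by their ratio.

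**Figure D4:**
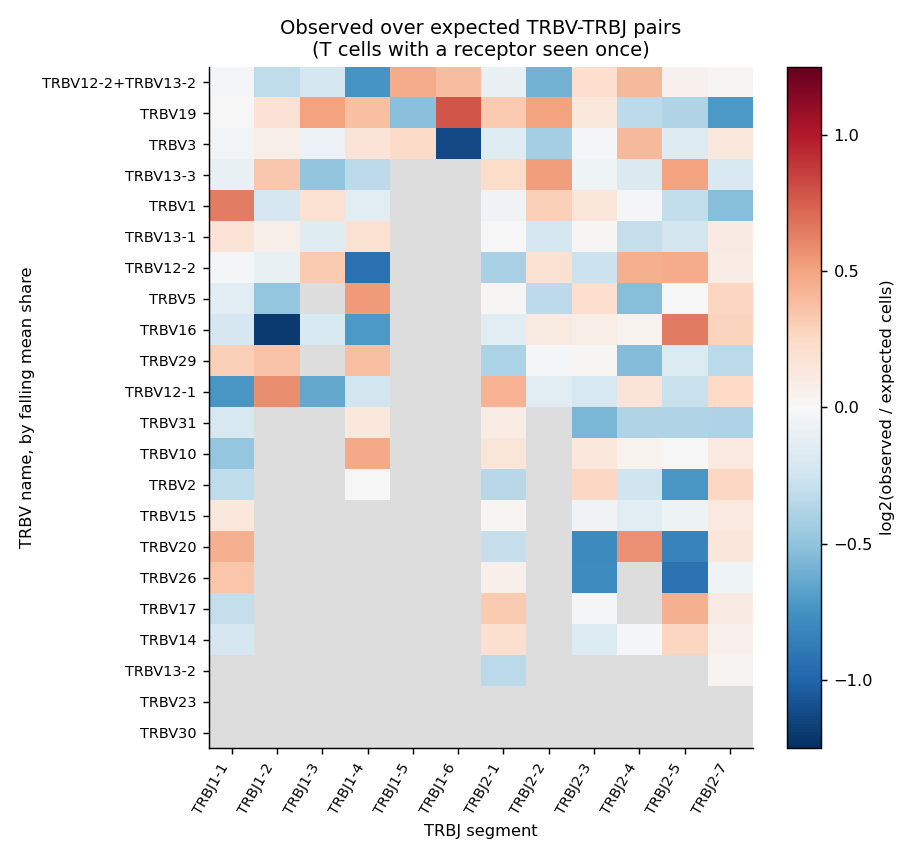
Colour gives log2 of observed over expected singletons for each V name (y axis) and J segment (x axis), and grey pairs had fewer than 10 expected. Most cells are pale, with ratios between 0.435 and 1.73, and every V name was found with both J clusters.

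The most common pairs were TRBV12-2+TRBV13-2 with TRBJ2-7 at a mean of 2.44% ± 0.569 of singletons (SD, n = 14 animals), TRBV3 with TRBJ2-7 at 1.48% ± 0.927, TRBV12-2+TRBV13-2 with TRBJ2-1 at 1.42% ± 0.723, TRBV13-3 with TRBJ2-7 at 1.39% ± 1.21 and TRBV13-1 with TRBJ2-7 at 1.35% ± 1.09. Of 169 pairs with at least 10 singletons, edgeR called 0 (0%) in the antigen, driver and male contrasts. At an unadjusted p under 0.05 it gave 9, 5 and 12 pairs, and exact permutation called 0 with 5, 16 and 0 pairs under 0.05 unadjusted. The smallest possible permutation p is 0.005, and 0.1 in the male contrast. After adjustment over 169 pairs, exact permutation could thus not call 1 pair alone. In the simulated antigen contrast for pairs, 0.481% of changes of 2-fold and 20.7% of 4-fold were recovered, with 26 pairs changed at once. The simulated shares varied more between animals than the common dispersion fitted to the pairs (9.77e-05). These rates therefore do not show which changes were detectable here.

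By edgeR the pair nearest to a call joined TRBV15 to TRBJ2-1. It was found in 5 of 6 lucOS females, with 2, 0 and 2 singletons in lucOS NICD and 5, 3 and 4 in lucOS sgp53, and in 0 of 6 luc females. Pooled over animals, the pair made up 16 of 2223 singletons (0.720%) in lucOS females. In luc females a count of 0 among 1766 allows up to 3 cells (0.170%). The edgeR adjusted p was 0.0619, and exact permutation gave p = 0.02 and an adjusted p of 0.735. Without lucOS NICD replicate 2, which had none, the edgeR adjusted p was 0.0356, and with 1 dispersion common to all pairs it was 0.0409. With each of the 15 libraries left out in turn, the edgeR adjusted p ran from 0.0356 to 0.826. TRBV5 with TRBJ2-1 averaged 0.409% ± 0.598 in lucOS and 1.22% ± 0.706 in luc females (edgeR adjusted p = 0.364).

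In the driver contrast, TRBV29 with TRBJ2-1 and TRBV12-2+TRBV13-2 with TRBJ1-3 were each found in 6 of 6 sgp53 females and 0 of 6 NICD females. Pooled over animals, each had 18 of 3101 singletons (0.580%) in sgp53 females. In NICD females a count of 0 among 888 allows up to 3 cells (0.338%). The edgeR adjusted p was 0.492 for both pairs, and 0.0274 with TMM scaling. Both NICD males carried the first, with 2 and 1 singletons (0.855% and 0.327%, within the sgp53 range), and 1 male carried the second in 1 singleton. Between the males and female lucOS NICD animals, TRBV12-2+TRBV13-2 with TRBJ2-4 was 1.71% and 1.63% of singletons against 0%, 0.855% and 0%, and TRBV3 with TRBJ1-4 was 0% and 0.327% against 0.803%, 3.42% and 1.31% (edgeR adjusted p = 0.475 for both).

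The CDR3 of singletons had a median of 14 residues and an SD of 1.48, and 71.6% had 13 to 15. Lengths ran from 5 to 19 residues. A length of 14 residues was the commonest in 11 of 14 animals, with 15 in 2 of the luc NICD and 13 in 1 of the lucOS NICD females, and it held 22.5% to 35.9% of an animal's singletons. The mean length differed between segments, which was not tested: singletons with TRBV20 averaged 12.7 residues and those with TRBV2 14.7, and J segments ran from 13.2 with TRBJ1-1 to 14.7 with TRBJ2-2.

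Group means of the CDR3 length were close. They were 14 ± 0.159 residues in luc NICD, 13.9 ± 0.128 in lucOS NICD, 14 ± 0.164 in luc sgp53 and 13.9 ± 0.115 in lucOS sgp53 females (SD, n = 3 animals each), and 13.6 and 14 in the males. The difference of lucOS from luc was -0.133 residues (two-sided exact permutation p = 0.11, adjusted p = 0.587 over 16 tests) and that of NICD from sgp53 -0.0222 (exact permutation p = 0.785, adjusted p = 0.985). The central stretch averaged 9.88 ± 0.289 bases in lucOS and 9.88 ± 0.381 in luc females (exact permutation, adjusted p = 0.985), and the TRBJ2 share 67.6% ± 3.90 and 67.0% ± 3.74 (exact permutation, adjusted p = 0.985). None of the 16 tests, 8 measures in 2 contrasts, passed the adjusted threshold. The smallest p that these groups allow is 0.005, so 1 test alone could not pass after adjustment over 16.

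Hydrophobic residues (F, I, L, M, V, W and Y) in the middle of the CDR3, after 4 residues were left out at each end, were 17.5%, 14.8% and 16% in luc NICD and 18.1%, 14.6% and 17.6% in lucOS NICD females. In sgp53 females they were 17.7%, 17.7% and 17.1% with luc and 18.1%, 18.2% and 18.7% with lucOS. The NICD mean was 1.51 percentage points below the sgp53 mean, a difference of -1.51 (exact permutation p = 0.02, adjusted p = 0.16), and the lowest values belonged to animals with 77, 117 and 40 singletons. In the lucOS NICD males, with 234 and 306 singletons, the share was as low, at 15.5% and 16.3%.

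**Figure D5:**
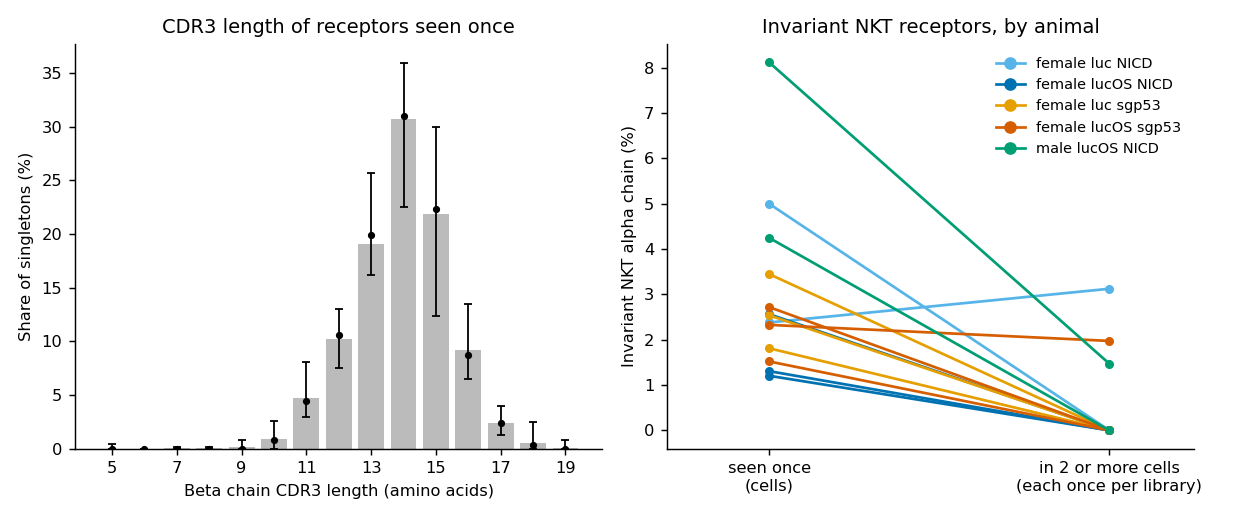
Left, bars give the share of all singletons (%, y axis) by CDR3 length in residues (x axis), and points with bars the median and range over 14 animals; the pooled peak is at 14 residues. Right, each line is 1 of 13 animals and joins the share of singletons with an invariant NKT alpha chain (%, y axis) to the share among clonotypes of 2 or more cells counted per library, which was 0% in 10 animals.

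Alpha chains were not used to choose the cells. A productive TRA was found in 74.6%, 66.2% and 75% of singletons in luc NICD, 73.9%, 73.5% and 58.2% in lucOS NICD, 76.4%, 79.3% and 78.2% in luc sgp53 and 81.5%, 80.2% and 81.8% in lucOS sgp53 females, and in 83.8% and 77.8% in the males. Every NICD female lay below every sgp53 female, with means of 70.2% ± 6.74 and 79.6% ± 2.04 (exact permutation p = 0.005, adjusted p = 0.08). The median UMI count of the TRB contig was 6 to 7 in NICD and 8 to 12 in sgp53 female libraries, and its part in the difference was not tested. Compared with larger clonotypes of the same animals, each counted once per library (20 were counted in both libraries of 1 animal), singletons had a TRA in 76.5% against 78.1% (n = 13 animals, exact sign-flip permutation, adjusted p = 0.605) and a TRA CDR3 of 13.6 ± 0.159 against 13.5 ± 0.288 residues (adjusted p = 0.313).

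Invariant NKT receptors were found in 128 singletons (2.83%) and in 5 cells of larger clonotypes. Counting each larger clonotype once per animal, 4 of 456 (0.877%, 95% Wilson interval 0.342% to 2.23%) held a cell with the receptor, where the singleton share of each animal would give 13.5. The share was 1.20% to 8.12% of singletons per animal, and in 10 of 13 animals no larger clonotype had the receptor. Animals had 2 to 76 larger clonotypes, and the largest set with none, 71 in a male, allows a share of up to 4.23%. At the singleton share, fewer than 1 such clonotype would be expected in 9 of the 13 animals, so a value of 0 there says little. For this reason the planned exact sign-flip permutation test within animals (p = 0.000732, adjusted p = 0.0022 over 3 tests, difference 2.51 ± 1.98 percentage points) is not read as a difference, and the counts are given as a description.

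The invariant NKT alpha chain of singletons was near-constant in sequence. Among 122 singletons in which it was the TRA with the most UMIs, 4 nucleotide CDR3s covered 46, 33, 20 and 14 cells from 12, 11, 10 and 10 animals. They differ at 1 position, given in capitals, position 12 counted from 1 at the 5′ end.
46 cells: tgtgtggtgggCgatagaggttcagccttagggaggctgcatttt
33 cells: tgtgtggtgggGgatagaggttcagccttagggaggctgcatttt
20 cells: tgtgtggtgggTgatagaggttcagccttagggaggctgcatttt
14 cells: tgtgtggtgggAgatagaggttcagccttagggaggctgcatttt
All 4 bases occur at that position. The beta chains of the 128 cells used the joint name TRBV12-2+TRBV13-2 in 46.1%, TRBV13-1 in 16.4%, TRBV29 in 14.1% and TRBV1 in 10.2%, against 10.2%, 6.38%, 4.36% and 6.11% of the other singletons. By animal the receptor made up 2.38%, 1.30% and 5.00% of singletons in luc NICD, 1.20%, 2.56% and 1.31% in lucOS NICD, 1.81%, 2.54% and 3.45% in luc sgp53 and 2.33%, 1.52% and 2.72% in lucOS sgp53 females. The shares of lucOS and luc females were 1.94% ± 0.673 and 2.75% ± 1.32 (exact permutation, adjusted p = 0.816). Both males, at 8.12% and 4.25%, lay above every lucOS female, which was not tested.

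MAIT receptors were found in 111 singletons (2.45%) and 19 cells of larger clonotypes. Among 109 singletons in which this was the TRA with the most UMIs, 1 nucleotide CDR3 covered 78 cells from 11 animals. It is printed beside the next most frequent, with capitals at the 3 positions where the 4 most frequent differ.
78 cells: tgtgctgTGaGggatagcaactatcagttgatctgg
6 cells: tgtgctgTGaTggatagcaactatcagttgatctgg
Their beta chains used TRBV13-3 in 27.0%, TRBV19 in 25.2% and the joint name TRBV12-2+TRBV13-2 in 22.5%, against 6.29%, 6.72% and 11.0% of the other singletons. The share varied widely between animals of a group. It was 8.43%, 9.40% and 0% of singletons in lucOS NICD females, 0.725%, 1.76% and 7.06% in luc sgp53, 1.19%, 0% and 0% in luc NICD, 0.368%, 1.90% and 1.60% in lucOS sgp53 females and 1.28% and 0.327% in the males. The counts of 0 stand for 153 singletons in lucOS NICD replicate 3 and 77 and 40 in luc NICD replicates 2 and 3, which allow shares of up to 1.96%, 3.90% and 7.5%. These MAIT values were singled out after they had been seen, and they were not tested.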

How the data were processed

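Values came from 15 T cell receptor libraries (10x 5′ single-cell) of liver tumours of 14 mice, grouped by the genotype and sex labels. The authors deposited tables of assembled contigs with counts of UMIs and reads for each. Per the submitters' processing notes, the build was mm10 and the tools included Cell Ranger and Seurat. Libraries held 49 to 1282 T cells, and intervals and limits on shares cover counting error only.

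Segment usage was tested with edgeR 4.0.16 in R 4.3.3 (glmQLFit and glmQLFTest) on singleton counts per animal, with all singletons of the animal as library size and no scaling. Entries needed 10 singletons, all 5 groups shared the fit, and p-values were adjusted by Benjamini-Hochberg over the entries of a contrast. Standard errors were derived from the log2 ratio and its F statistic. A first fit with a common dispersion was run and seen before the default settings of the written design were used. It is given as an alternative. Measures per animal were tested by two-sided exact permutation of labels within the other factor (400 arrangements), adjusted over 16 tests, and alpha chain measures by exact sign flips. The step for usage was tested on simulated data in 40 runs on 22 V, 12 J and 256 pair entries. In these, up to 9.77% of unchanged J entries were called when another changed by 4-fold.

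The start and end of a V or J segment were read from the singletons, extending while at least 50% of those still matching, and at least 10, shared the next base. Possible doublets were kept, and leaving them out (2 or more TRB or 3 or more TRA) was an alternative. Other alternatives changed the scaling, filter, test, UMI minimum, clonotype rule or libraries used. Joining TRBV13-2 with the joint name and leaving out singletons near a larger clonotype were added after seeing the data.

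The cells, lists and tests were chosen with earlier results of these data known. Named V and J entries are the 5 with the highest mean share, every called one and the 3 with the smallest edgeR p in a contrast. For pairs they are the 5 most common and the 2 with the smallest edgeR p. Some V entries were also named for their exact permutation p. Replicates are animals, numbered here in accession order. Python 3.11.15, pandas 2.3.3, numpy 2.4.6 and scipy 1.17.1 were used. The CDR3 sequence of 1 singleton with TRBJ1-3 is not reported here.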

Additional observations from a re-analysis of the deposited data

Results flagged for a closer look

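The effect of lucOS on the effective number of V entries went opposite ways with the 2 drivers. The number was lower in every lucOS NICD female (15.4 ± 1.64, SD, n = 3 animals) than in every luc NICD female (18.7 ± 2.79) and higher in every lucOS sgp53 female (17.2 ± 0.486) than in every luc sgp53 female (15.7 ± 0.420). The closest NICD values were 16.48 in lucOS replicate 1 and 16.60 in luc replicate 3, the animal with 40 singletons. The effects differed by -4.75, and this difference was not tested. The luc NICD animals had 252, 77 and 40 singletons, in all the fewest of any group.

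The joint name TRBV12-2+TRBV13-2 made up 12%, 12% and 11.8% of singletons in lucOS NICD females against 10.7%, 5.19% and 2.50% in luc NICD, but 10.7%, 9.89% and 9.92% in lucOS sgp53 against 13.4%, 12.7% and 11.5% in luc sgp53. The effects of lucOS differed by 8.17 percentage points, and the edgeR interaction test gave a log2 value of 0.76 ± 0.42 (SE) with an adjusted p of 0.381. Singletons named TRBV13-2 share that CDR3 start. They made up 1.61%, 0.855% and 0.654% in lucOS NICD against 3.57%, 2.60% and 5.00% in luc NICD, the opposite way. In sgp53 females they made up 1.35%, 0.760% and 1.44% with lucOS and 1.81%, 1.56% and 1.31% with luc. How far the pattern of the joint name depends on how such receptors were split between the names was not tested.

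TRBV26 made up 2.41%, 3.42% and 1.31% of singletons in lucOS NICD females against 4.37%, 3.90% and 5.00% in luc NICD, and 2.45%, 3.04% and 2.72% in lucOS sgp53 against 1.81%, 2.15% and 1.15% in luc sgp53. The effects of lucOS differed by -3.08 percentage points, with an edgeR interaction of -1.57 ± 0.53 (SE), an unadjusted p of 0.0157 and an adjusted p of 0.18.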

How the results depend on the processing

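Animals of different groups were not paired, since the labels give no pairing between them, while singletons and larger clonotypes were compared within animals. Over 54 results and 28 settings (3 chosen after seeing the data), 1240 of 1371 recomputed values were counted as the same. For tested values this means the same direction and side of the threshold, and for counts of calls an equal count. For the share of T cells seen once it means a change smaller than the SD over libraries. The difference in invariant NKT share between singletons and larger clonotypes was 2.16 to 3.67 percentage points over these settings. The counts of calls moved with the following settings, and the cause was not tested. V segments by driver gave 1 call without possible doublets, with clonotypes counted within the animal, or without singletons near a larger clonotype. J segments by antigen gave 0 calls with females only, without doublets, with at least 3 UMIs, by amino acid CDR3, within the animal, by TRB and TRA together, and by exact permutation. J segments by driver gave 2 calls without doublets, without animals under 100 T cells or without singletons near a larger clonotype, and 0 by TRB and TRA or by exact permutation. J segments in males gave 0 by exact permutation, which cannot go below p = 0.1 there. Pairs by driver gave 8 calls with TMM scaling. Pairs by antigen gave 1 with a common dispersion without a trend, the fit that was run and seen first. With 1 library left out, calls ran from 0 to 1 for V segments by driver, J segments by antigen, J segments in males and pairs by antigen, and from 0 to 2 for J segments by driver.

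The measures per animal that changed sign had small differences. Without animals under 100 T cells the driver difference was 0.00103 residues in CDR3 length, 0.101 bases in the central stretch, 1.32 points in TRBJ2 share and -0.00864 residues in TRA CDR3 length, and the antigen difference in TRBJ2 share was -0.874. By TRB and TRA it was 0.141 bases (central stretch, antigen), -0.0609 and 0.350 points (TRBJ2, antigen and driver) and 0.275 points (invariant NKT, driver). Without doublets it was 0.0125 bases (central stretch, antigen) and 0.315 points (TRBJ2, driver). The antigen difference in the central stretch was 0.00246 with TRBV13-2 joined to the joint name and 0.00124 without singletons near a larger clonotype, and that in TRA share was 0.0813 with at least 3 UMIs. With 1 library left out, the driver differences ran from -0.0589 to 0.0245 (CDR3 length), -0.184 to 0.0440 (central stretch), -1.61 to 1.49 (TRBJ2), -0.200 to 1.11 (effective number), -0.0404 to 0.0934 (TRA CDR3), -0.629 to 0.297 (invariant NKT), -1.86 to -0.968 (hydrophobic residues) and -10.7 to -6.74 (TRA share). The antigen differences ran from -0.0997 to 0.129 (central stretch), -1.05 to 1.56 (TRBJ2), -1.54 to 2.47 (TRA share) and -0.123 to 0.0109 (TRA CDR3). Without luc NICD replicate 1 the hydrophobic and TRA share differences by driver passed, each with an exact permutation adjusted p of 0.04. The animals with 77 and 40 singletons limit the luc NICD group most.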
